A study of Mus musculus with 42 samples.

Results

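The 10 genes described here encode proteins that make microRNAs (miRNAs) or load them into silencing complexes, plus RNA-binding proteins that act on miRNA precursors. They are Drosha, Dgcr8 and Hnrnpa2b1 of the nuclear step, Xpo5 of nuclear export, Dicer1 and Tarbp2 of the cytoplasmic step, the Argonaute genes Ago1, Ago2 and Ago3, and Lin28b, which blocks let-7 precursors. They were taken by symbol from a table of 55471 genes, and all 10 were found there and passed a filter on low counts that left 17609 genes for testing. The cells were primary hippocampal neurons from NMRI mouse embryos of day 16, plated in medium with horse serum and then kept in medium with B27 supplement. Control cultures (Ctrl, 6 libraries) were compared with cultures given brain-derived neurotrophic factor at 50 ng/ml for 20 min (BDNF, 6 libraries). Other cultures were exposed for 24 h to small extracellular vesicles (EVs) released by cortical neurons, either from vehicle-treated donors (CtrlEV, 3 libraries) or from donors given the same BDNF pulse (BDNFEV, 3 libraries). The sources used here do not give the time between the BDNF pulse and the lysis of the hippocampal cells. Whether replicates came from separate cultures is not stated, so p-values here measure the spread between libraries, which may be technical.

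In the nucleus, a primary miRNA transcript is cleaved by the Microprocessor, in which the RNase III enzyme Drosha cuts and the RNA-binding protein Dgcr8 holds the hairpin. Exportin-5, the product of Xpo5, carries the precursor hairpin to the cytoplasm, where Dicer1 cuts it to a duplex with the help of the cofactor encoded by Tarbp2, and an Argonaute protein keeps 1 strand as a guide for silencing. In neurons part of this machinery sits in dendrites near synapses, and BDNF has been linked in earlier work to Dicer activity and to the induction of Lin28 proteins.

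Libraries held 16274937 to 36835780 gene counts, the deepest being Ctrl 6. The labels give batches a to d without saying what a batch is: batch a holds set 1, batch b sets 2 and 3, batch c sets 4 and 5, and batch d set 6, and the EV groups exist in sets 1 to 3 only. The 8 neuron markers checked (Map2, Tubb3, Stmn2 and others) summed to 5527 to 6577 CPM (counts scaled to a common library total with TMM factors). Astrocyte markers such as Slc1a3 and Gfap were also plain, at 2274 to 3130 CPM over 9 genes, so the cultures were not of neurons alone. Of 9 microglia markers 7 averaged under 1 CPM. Of 15 genes known to answer BDNF or activity (Arc, Fos, Npas4 and others) 5 rose in BDNF minus Ctrl and 0 fell, while 7.5% of all genes tested were called higher. Of the 15, 7 had a negative value, the lowest being −0.92 (log2), and their summed level was 540.3 to 1546 CPM in Ctrl (median 1108) and 669.5 to 1930 in BDNF (median 819). In bulk RNA of this kind, fewer cells of a type and less RNA per cell cannot be told apart.

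All 10 genes were detected in every library, and most of them hardly varied. The coefficient of variation over the 18 libraries was lowest for Xpo5 at 3.18%, followed by Ago1 at 4.09% and Dgcr8 at 5.70%, and highest for Ago3 at 16.6% and Lin28b at 18.9%. Lin28b is the gene with the fewest counts, 26 to 73 per library, so part of its spread is counting error. Between the lowest and the highest library the level of Xpo5 differed 1.14-fold, that of Ago3 1.96-fold and that of Lin28b 2.02-fold. Levels are not compared between genes, since no transcript lengths were used.

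**Figure D1:**
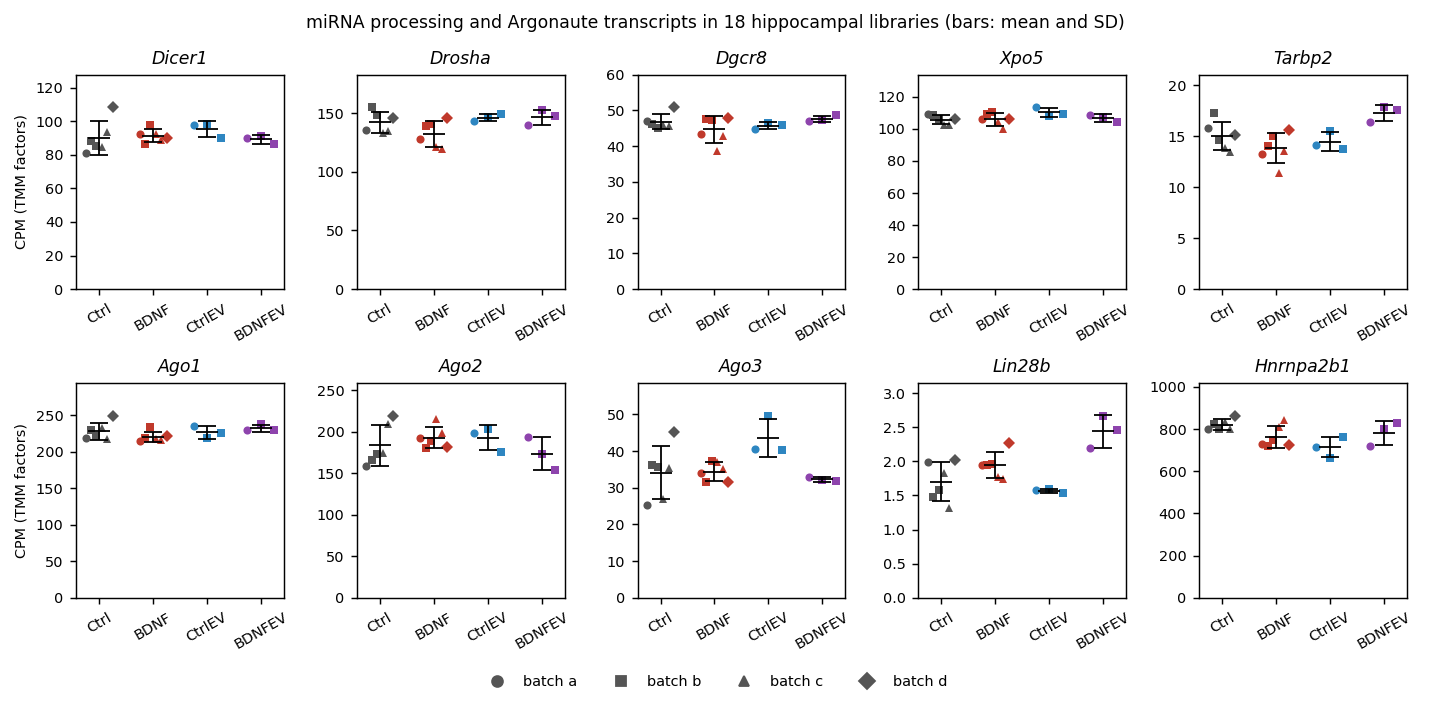
Level of each of the 10 genes in CPM (linear axis from 0) in the 18 hippocampal libraries, by group, with marker shapes for the batches and bars for the mean and SD. The groups of most genes lie on top of each other, Tarbp2 and Lin28b have their highest means in the 3 BDNFEV libraries (16.4 to 17.8 and 2.19 to 2.67 CPM), and Ago3 in the 3 CtrlEV libraries (40.4 to 49.6 CPM).

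Promoter windows are shown for 4 genes, Drosha and Tarbp2 because each passed a test and Dicer1 and Ago3 because their levels moved together from library to library. Each is the 250 bases before the start site that RefSeq gives in GRCm38.p6, the assembly of mm10, read 5′ to 3′ on the gene's strand. The window of Drosha is chr15:12824565-12824814 (plus strand), that of Tarbp2 chr15:102517942-102518191 (plus strand), that of Dicer1 chr12:104751953-104752202 (minus strand) and that of Ago3 chr4:126429543-126429792 (minus strand). The windows of Drosha and Dicer1 overlap the annotated gene by a few bases and those of Tarbp2 and Ago3 lie wholly inside it, since the annotation also holds starts further upstream. Capitals mark the short core of the cAMP response element that CREB binds (TGACG or CGTCA), the CCAAT box (CCAAT or ATTGG) and the GC box bound by Sp1 (GGGCGG or CCGCCC).
Drosha: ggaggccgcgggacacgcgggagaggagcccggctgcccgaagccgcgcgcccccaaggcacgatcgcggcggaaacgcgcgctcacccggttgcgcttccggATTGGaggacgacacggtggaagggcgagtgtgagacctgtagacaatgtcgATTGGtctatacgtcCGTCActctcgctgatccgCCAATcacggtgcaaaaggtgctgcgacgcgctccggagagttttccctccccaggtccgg
Tarbp2: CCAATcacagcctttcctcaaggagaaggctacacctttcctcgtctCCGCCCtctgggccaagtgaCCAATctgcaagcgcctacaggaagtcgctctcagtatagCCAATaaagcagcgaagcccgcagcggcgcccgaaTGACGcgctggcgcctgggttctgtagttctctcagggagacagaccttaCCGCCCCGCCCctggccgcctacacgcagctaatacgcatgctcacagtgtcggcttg
Dicer1: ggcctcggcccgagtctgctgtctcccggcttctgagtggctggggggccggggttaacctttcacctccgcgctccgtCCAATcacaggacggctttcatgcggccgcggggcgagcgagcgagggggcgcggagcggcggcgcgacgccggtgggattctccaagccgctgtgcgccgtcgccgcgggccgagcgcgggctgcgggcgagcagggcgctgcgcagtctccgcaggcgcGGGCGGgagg
Ago3: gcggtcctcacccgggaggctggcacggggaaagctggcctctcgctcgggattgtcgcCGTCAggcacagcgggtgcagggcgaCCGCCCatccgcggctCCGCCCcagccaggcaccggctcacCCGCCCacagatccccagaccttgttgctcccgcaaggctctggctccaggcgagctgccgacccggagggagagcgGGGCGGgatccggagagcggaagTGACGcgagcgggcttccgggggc
Of the 10 genes 9 have such a window, and Ago2 was not looked at. Ago1 and Hnrnpa2b1 have 2 windows each, and for every gene only the first one listed was searched. The full cAMP response element (TGACGTCA) is in 0 of the 9 and in 1.6% of the windows of 27025 genes. The short core, which the full element contains, is in 5 of the 9 (Ago3, Hnrnpa2b1, Drosha, Tarbp2 and Xpo5) and in 17.9% of all windows. The CCAAT box is in 7 of the 9 against 34.5% of all windows, the GC box in 6 against 32.9%, the E-box CACGTG in 1 (Lin28b) against 6.0%, and the TATA box (TATAAA or TTTATA) in 0 against 13.0%. All motifs were searched on both strands. GC content, whose median over all windows is 52.0%, was 66.4% for Drosha, 60.0% for Tarbp2, 76.0% for Dicer1 and 73.6% for Ago3 and the shares were not matched for it. A match describes letters only.

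After direct BDNF treatment Drosha, the nuclear RNase III, was lower and was the single gene of the 10 to pass. Dgcr8, Xpo5, Dicer1, Tarbp2, the 3 Argonaute genes, Lin28b and Hnrnpa2b1 did not pass. That is 1 of 10, while 13.8% of all genes tested were called in this comparison and 6.25% were called lower, so the share among the 10 is near the background. The median log2 fold change of the 10 was −0.02 and that of all genes tested was −0.00, and the median size of a change, in either direction, was 0.09 over all genes. The test was edgeR's quasi-likelihood test on the counts with Benjamini-Hochberg adjustment over all genes (edgeR adjusted p), batch being a term of the fit.

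Drosha (ENSMUSG00000022191, chromosome 15, 12824804 to 12935291, plus strand) ranged in Ctrl from 133 CPM through a median of 141 to 155 CPM. After BDNF it ranged from 119 through 133 to 146 CPM. The ranges overlap, and BDNF 6 is as high as Ctrl 6. Means were 132 ± 11.2 CPM after BDNF and 142 ± 8.85 in Ctrl (SD, n = 6 each). The fitted change was −0.11 ± 0.03 on the log2 scale (SE, edgeR adjusted p = 0.0268), a fold of 0.929 with a 95% interval of 0.887 to 0.972. Within sets, BDNF was below Ctrl in 6 of 6, by −0.18 to −0.00 in log2(CPM + 1), and the difference was −0.09 in batch a, −0.12 in batch b, −0.16 in batch c and −0.00 in batch d. The call is a narrow one. It was lost without Ctrl 2, 4 or 5 or BDNF 1, 4 or 5 (edgeR adjusted p = 0.0556 to 0.0886) and also without the filter on low counts (0.0987), without the batch term (0.318), with batches a and b alone (0.159) and with the 12 libraries compared alone (0.0612). It held with the replicate number as a block (edgeR adjusted p = 0.0461). The EV groups, with 143, 147 and 149 CPM in CtrlEV and 139.9, 153 and 147 in BDNFEV, lay within the Ctrl range. Summed progenitor and proliferation markers (13 genes) were 398 to 478 CPM in Ctrl and 458 to 679.9 in BDNF, and inhibitory neuron markers (8 genes) 590.5 to 971 and 863 to 1381 CPM. Their part in the result was not tested.

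Dgcr8 (chromosome 16, 18253948 to 18289251, minus strand), the partner of Drosha, ranged from 45.1 through a median of 46.1 to 50.9 CPM in Ctrl. With BDNF it ranged from 38.7 through 45.5 to 48.01 CPM. The lowest libraries, BDNF 4 and 5, are those of batch c, and the groups overlap. The fit gave −0.07 ± 0.04 (log2, SE, edgeR adjusted p = 0.297). With batches a and b alone the value was 0.00. Dgcr8 overlaps Trmt2a by 825 bases and the miRNA gene Mir1306, and since the library kit does not mark strand, reads from such shared stretches cannot be assigned.

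Hnrnpa2b1 (chromosome 6, 51460434 to 51470048, minus strand) encodes an RNA-binding protein that reads methylated primary miRNAs for the Microprocessor and sorts some miRNAs into EVs. Ctrl libraries ran from 799 through a median of 814 to 862 CPM. BDNF libraries ran from 720.2 through 738 to 845 CPM. BDNF 4 and 5 lie within the Ctrl range and the other 4 below it. BDNF minus Ctrl came to −0.11 ± 0.04 (log2, SE, 95% interval −0.20 to −0.02), lower in 5 of 6 sets, with an unadjusted p of 0.0205 in edgeR's test and an edgeR adjusted p of 0.106, so it did not pass.

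Xpo5 (chromosome 17, 46202811 to 46243598, plus strand) was the steadiest. It ranged from 102 through 106 to 109.6 CPM in Ctrl and from 99.7 through 106 to 111 CPM with BDNF. The difference was 0.00 ± 0.03 (log2, SE, edgeR adjusted p = 0.970), and the 95% interval of the fold was 0.958 to 1.05. Dicer1 (chromosome 12, 104687740 to 104751968, minus strand) ranged from 80.8 through 86.6 to 108 CPM in Ctrl and from 86.4 through 91.3 to 97.9 CPM with BDNF, so that Ctrl spans BDNF on both sides. Fitted, this was 0.02 ± 0.05 (log2, SE, edgeR adjusted p = 0.811). Between sets the sign varied, from −0.26 in set 6 to 0.20 in sets 1 and 3.

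Tarbp2 (ENSMUSG00000023051, chromosome 15, 102516077 to 102523676, plus strand) encodes the double-stranded RNA-binding partner of Dicer. It ranged from 13.5 through 14.9 to 17.3 CPM in Ctrl and from 11.4 through 13.8 to 15.6 CPM with BDNF. The groups overlap, and sets 3, 5 and 6 stood the other way from sets 1, 2 and 4. On the log2 scale the change was −0.12 ± 0.06 (SE, edgeR adjusted p = 0.208).

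The Argonaute genes did not pass either. Ago1 (chromosome 4, 126435012 to 126468707, minus strand) changed by −0.05 ± 0.03, Ago2 (chromosome 15, 73101625 to 73184947), the Argonaute that can cut its targets, by 0.07 ± 0.07, and Ago3 (chromosome 4, 126326994 to 126431670, minus strand) by 0.01 ± 0.11 (log2, SE, edgeR adjusted p = 0.379, 0.538 and 0.954). For Ago2 the 95% interval of the fold was 0.953 to 1.16 and for Ago3 it was 0.856 to 1.19. Ago2 ranged from 159 through 174 to 219 CPM in Ctrl and from 181 through 190.5 to 215 CPM with BDNF. Both groups are wide, and the sign differs between batches, with 0.27 in batch a, 0.12 in batch b, 0.11 in batch c and −0.27 in batch d. Ago2 overlaps the long non-coding RNA gene Gm31725 by 7013 bases, and without strand the reads there cannot be told apart. Ago3 ranged from 25.3 through 35.5 to 45.1 CPM in Ctrl and from 31.5 through 34.6 to 37.2 CPM with BDNF, so that here too Ctrl spans the BDNF libraries on both sides.

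Lin28b (chromosome 10, 45376617 to 45486314, minus strand) blocks the maturation of let-7 precursors in immature cells. It ranged from 1.32 through 1.71 to 2.02 CPM in Ctrl and from 1.75 through 1.95 to 2.28 CPM with BDNF. The fitted difference was 0.19 ± 0.12 (log2, SE, edgeR adjusted p = 0.351), higher in 4 of 6 sets. Its relative Lin28a held too few counts to be tested.

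**Figure D2:**
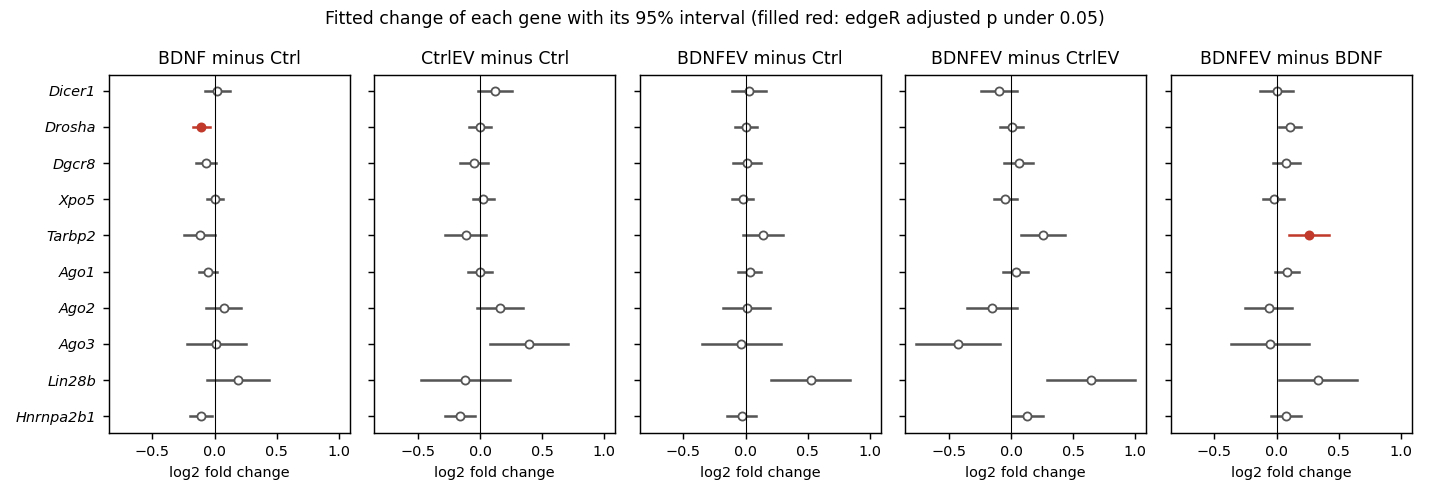
Fitted log2 fold change (horizontal axis) of the 10 genes in 5 comparisons, points with 95% intervals, filled red where the edgeR adjusted p was under 0.05. Drosha in BDNF minus Ctrl (−0.11) and Tarbp2 in BDNFEV minus BDNF (0.26) are the filled points, and the intervals of Ago3 and Lin28b are the widest.

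EVs from control donors changed none of the 10 genes past the threshold. In CtrlEV minus Ctrl, 0 of 10 passed in edgeR's test against 0.0284% of all genes tested, and 2 had an unadjusted p under 0.05, as did 1082 of all genes. These were Hnrnpa2b1, which had the smallest p, and Ago3. Hnrnpa2b1 stood at 718, 664 and 761 CPM in CtrlEV, all under the lowest Ctrl library (799). The 2 groups do not overlap. The share of all genes tested whose groups do not overlap was not counted, here or in the other comparisons. The fitted value was −0.16 ± 0.06 (log2, SE, edgeR adjusted p = 0.776), −0.16 in batch a and −0.19 in batch b. Ago3 stood at 40.6, 49.6 and 40.4 CPM, above 5 of the 6 Ctrl libraries. Ctrl 6, with 45.1 CPM, lies between them. CtrlEV minus Ctrl came to 0.39 ± 0.15 (log2, SE, 95% interval 0.08 to 0.71, edgeR adjusted p = 0.787), with 0.66 in batch a and 0.31 in batch b. Ago2 (0.16), Dicer1 (0.12), Tarbp2 (−0.12) and Lin28b (−0.12) were nearer to 0, and the other 4 genes lay within −0.05 to 0.03.

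EVs from BDNF-treated donors gave the same count against Ctrl, 0 of 10 against 0.0227% of all genes tested. The gene with the smallest p was Lin28b, at 2.19, 2.67 and 2.46 CPM in BDNFEV. All 3 are above the highest Ctrl library (2.02 CPM). BDNFEV minus Ctrl came to 0.52 ± 0.16 (log2, SE, 95% interval 0.20 to 0.84), a fold of 1.44, with an edgeR adjusted p of 0.384 and an unadjusted one of 0.00255. It was higher in 3 of 3 sets, by 0.09 in batch a and 0.50 in batch b in log2(CPM + 1). These are 45 to 65 counts per library. A list of 13 progenitor and proliferation markers (Sox2, Nes, Mki67 and others) summed to 368 to 398 CPM in BDNFEV, 361 to 383 in CtrlEV, 398 to 478 in Ctrl and 458 to 679.9 CPM in BDNF, and its part in the result was not tested. Tarbp2, at 16.4, 17.8 and 17.6 CPM, was 0.14 ± 0.08 above Ctrl (log2, SE, edgeR adjusted p = 0.753), and the other 8 genes lay between −0.04 and 0.03.

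Between the 2 kinds of EV, which is the comparison of the donors' treatment, 0 of 10 genes passed, as did 0% of all genes tested by edgeR (1475 at an unadjusted p under 0.05, and 3 calls with DESeq2). Of the 10, 4 had an unadjusted p under 0.05. Lin28b was higher in BDNFEV by 0.64 ± 0.17 (log2, SE, edgeR adjusted p = 0.360), with 1.57, 1.59 and 1.53 CPM in CtrlEV. The groups do not overlap, with BDNFEV at 2.19 to 2.67 CPM. The CtrlEV values rest on 28, 31 and 34 counts. How many of all genes separate in this way with 3 libraries in each group was not counted. Tarbp2 was higher by 0.26 ± 0.08 (log2, SE, edgeR adjusted p = 0.441), with CtrlEV at 14.2, 15.5 and 13.8 CPM, and its groups do not overlap either. Ago3 was lower by −0.43 ± 0.16 (log2, SE, edgeR adjusted p = 0.528), BDNFEV standing at 33.1, 32.0 and 31.7 CPM under all 3 CtrlEV libraries. Hnrnpa2b1, at 720.4, 800.0 and 828 CPM in BDNFEV, was higher by 0.13 ± 0.06 (edgeR adjusted p = 0.586), with overlap. Dgcr8 did not overlap between the groups (47.03, 47.4 and 48.6 CPM in BDNFEV, 44.7, 46.5 and 46.01 in CtrlEV), yet the difference was 0.06 ± 0.06 (log2, SE). Over the 10 genes the median was 0.02, against −0.00 for all genes tested.

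Against direct BDNF, Tarbp2 was higher in cells given EVs of BDNF-treated donors, and it alone of the 10 passed. Among all genes tested 8.36% were called in BDNFEV minus BDNF and 3.36% were called higher. The 3 BDNFEV libraries (16.4, 17.8 and 17.6 CPM) lie above all 6 BDNF libraries (11.4 through a median of 13.8 to 15.6 CPM). Means were 17.3 ± 0.765 CPM (SD, n = 3) and 13.8 ± 1.47 (SD, n = 6). The change was 0.26 ± 0.08 (log2, SE, edgeR adjusted p = 0.0380), a fold of 1.198 with a 95% interval of 1.07 to 1.34. It was higher in 3 of 3 sets, with 0.29 in batch a and 0.27 in batch b. The call was lost without Ctrl 4, BDNF 1, 2 or 4, or any 1 of the BDNFEV libraries (edgeR adjusted p = 0.0508 to 0.157), and with DESeq2 (adjusted p = 0.0538), while the value stayed within 0.23 to 0.28. Tarbp2 overlaps Map3k12, a kinase gene of neurons, by 928 bases, and without strand the reads there cannot be told apart.

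Drosha followed at 0.11 ± 0.04 (log2, SE, edgeR adjusted p = 0.119), higher in 3 of 3 sets, and Lin28b at 0.34 ± 0.15 (edgeR adjusted p = 0.191), with BDNF 6 inside the BDNFEV range. The other 7 genes lay between −0.06 and 0.08. BDNFEV minus Ctrl and BDNFEV minus BDNF share the BDNFEV libraries, so their values for a gene are not independent. The same holds for BDNF minus Ctrl and BDNFEV minus BDNF, which share the BDNF libraries. In order of mean level, Tarbp2 was highest in BDNFEV (17.3 CPM), followed by Ctrl (15.0), CtrlEV (14.5) and BDNF (13.8), and in that order only the step from BDNFEV to BDNF passed a test.

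A further comparison was chosen after seeing the data. It asked whether the effect of the donors' treatment (BDNFEV minus CtrlEV) differed from that of direct BDNF (BDNF minus Ctrl). Tarbp2 was the 1 gene of 10 that passed, with a difference of 0.38 ± 0.10 (log2, SE, 95% interval 0.16 to 0.59, edgeR adjusted p = 0.0458), while 3.34% of all genes tested were called. It was 0.26 with EVs and −0.12 with BDNF. The call was lost with the replicate number as a block (edgeR adjusted p = 0.0620), with DESeq2 (adjusted p = 0.0521), without the batch term (edgeR adjusted p = 0.321), with batches a and b alone (0.0557) and in 13 of 18 fits that leave out 1 library. Hnrnpa2b1 was next at 0.24 ± 0.07 (log2, SE, edgeR adjusted p = 0.0839). It passed with DESeq2 (adjusted p = 0.0461), where Tarbp2 did not, without the filter on low counts (edgeR adjusted p = 0.00786) and without Ctrl 5 (edgeR adjusted p = 0.0476).

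The levels of Dicer1, Ago2 and Ago3 moved together from library to library. After subtracting batch means from log2(CPM + 1), Pearson's r over the 18 libraries was 0.867 for Dicer1 and Ago2, 0.847 for Dicer1 and Ago3, and 0.861 for Ago2 and Ago3. Spearman's rho was 0.874, 0.853 and 0.847. These are the highest r of the 45 pairs that the 10 genes make. They were picked from those pairs after seeing the data. Libraries of 1 set may not be independent, so these values are given as a description, with no test. Among all pairs of genes tested 0.111% had an r of at least 0.847, and so did 84 genes with Dicer1, 150 with Ago2 and 69 with Ago3, so many other genes followed the same pattern. Without the 2 libraries farthest from the median r was 0.820, 0.793 and 0.827, with the group means removed as well it was 0.855, 0.839 and 0.884, and with group and set means removed it was 0.856, 0.838 and 0.892. Within batch b, the 1 batch with more than 6 libraries (n = 8), r was 0.759, 0.660 and 0.719 and rho was 0.5, 0.69 and 0.524. The next pair was Dgcr8 and Tarbp2 with r = 0.608, which was 0.312 with group and set means removed.

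**Figure D3:**
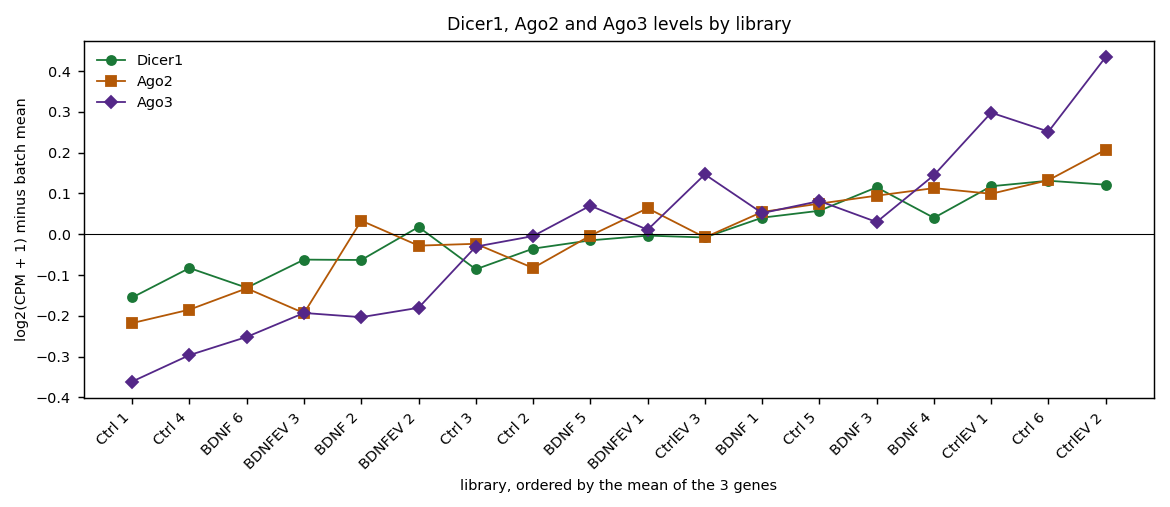
Level of Dicer1, Ago2 and Ago3 in each of the 18 libraries as log2(CPM + 1) minus the mean of its batch, libraries ordered by the mean of the 3 genes and lines joining the points of 1 gene. The 3 genes run in parallel from Ctrl 1 (mean −0.24) to CtrlEV 2 (mean 0.25), with Ago3 spanning the widest range and libraries of all groups mixed along the axis.

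The order of libraries in that pattern was not the order of the groups. Ctrl 1 and Ctrl 4 were lowest, at means of −0.24 and −0.19 over the 3 genes, while Ctrl 6 (0.17) was among the highest, beside CtrlEV 1 (0.17) and CtrlEV 2 (0.25). Batch d holds only Ctrl 6 and BDNF 6, so subtracting its mean sets them at opposite values (0.17 and −0.17). The means of batches a and b include EV libraries and those of c and d do not, so baselines differ between batches. The CtrlEV libraries were all above 0 and BDNFEV ran from −0.15 to 0.02. The genes whose levels were most like those of Dicer1 over the 18 libraries, chosen here after its pattern was seen, were Csmd1 (r = 0.942), Kmt2c (0.931) and Vps13c (0.931). For Ago2 they were Herc1 (0.967), 4932438A13Rik (0.967) and Huwe1 (0.964), and for Ago3 Phc3 (0.957), Qser1 (0.937) and Ubn2 (0.934). As background, Csmd1, Kmt2c, Vps13c, Herc1 and Huwe1 are known for very large proteins. They were singled out after the names were seen, and a link of the pattern to size was not tested. Those most like Drosha included Gm15612 (0.937) and Arhgap33 (0.920), and those most like Tarbp2 were Srrt (0.908), itself a partner of the nuclear step, Shkbp1 (0.869) and Qtrt1 (0.863). For Hnrnpa2b1 they were Rnf180 (0.882), Zfp326 (0.875) and Tardbp (0.873), and for Lin28b Ppil2 (0.901), Gm5946 (0.845) and Pafah2 (0.814). Each was picked as the highest among all genes tested over the same libraries, which makes high values of r unavoidable.

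The wider pathway was covered by 7 lists (121 genes tested, including the 10, with some genes in more than 1 list). In BDNF minus Ctrl 2 rose and 10 fell, 9.92% of the 121 against 13.8% of all genes tested, and no change was over 1.5-fold. The median of the 121 was −0.04 (log2) and that of all genes −0.00.

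Of 19 partners of the Microprocessor, a list that holds Drosha itself, 4 fell and 0 rose, while 6.25% of all genes tested were called lower. A negative value was found for 17 of the 19 and for 8903 of all 17609 genes tested, and the list's median was −0.09. The list was not tested as a group. Besides Drosha those that fell included Hnrnpa1, which remodels certain primary hairpins, from 80.9 ± 6.56 to 69.9 ± 7.03 CPM (SD, n = 6 each, log2 −0.21), and Srsf3, a splicing factor that binds the base of primary hairpins, at −0.14 (edgeR adjusted p = 0.0342 and 0.0187). Of 11 genes of export and Dicer cofactors 0 passed, with a median of −0.00. Of 18 genes of Argonaute proteins and loading 1 fell, the Hsp90 co-chaperone Fkbp4 (−0.11), and 17 did not pass.

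Among 29 genes of the GW182 proteins, deadenylation and decapping, 1 rose and 2 fell. Limd1, a scaffold that links Argonaute to GW182 proteins, rose by 0.32 ± 0.06 (log2, SE, edgeR adjusted p = 0.000907), and the deadenylase subunits Cnot7 and Cnot10 fell by 0.16 and 0.11. Tnrc6b, a GW182 protein, stood at 0.22 ± 0.10 and did not pass (edgeR adjusted p = 0.168). Of 16 tested genes of precursor control and turnover, the nuclease Snd1, known from the degradation of edited miRNAs, rose by 0.15 and the nuclear exonuclease Xrn2 fell by 0.15. Of 19 RNA-binding proteins linked to vesicle sorting 3 fell, among them Hnrnph1 (−0.21) and Hnrnpa1, and 0 rose, with a median of −0.08. Of 18 neuronal regulators of silencing 1 fell, the RNA-binding protein Elavl4 (−0.17).

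**Figure D4:**
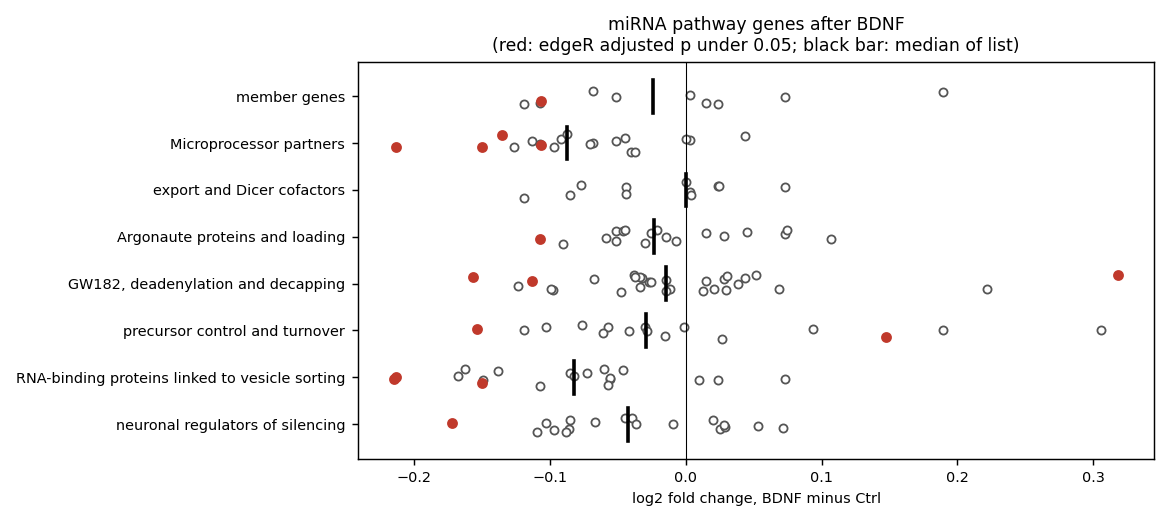
Log2 fold change of BDNF minus Ctrl (horizontal axis) for each tested gene of the 10 genes and of 7 pathway lists, red where the edgeR adjusted p was under 0.05 and a black bar at the list's median. Partners of the Microprocessor have the lowest median (−0.09), and the highest red point is Limd1 (0.32).

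CtrlEV minus Ctrl, BDNFEV minus Ctrl and BDNFEV minus CtrlEV called 0 of the 121 genes by edgeR's test, and 1 of them, Lin28b, differed by more than 1.5-fold in the last. In BDNFEV minus BDNF 6 genes were higher and 0 lower (4.96% of the 121), while 8.36% of all genes tested were called and 3.36% were called higher, and the median of the 121 was 0.04. They were Tarbp2, Srrt (0.19), Srsf3 (0.18), Xrn2 (0.18), Hnrnph1 (0.25) and Smpd3 (0.22), which encodes a sphingomyelinase of EV release. In BDNF minus Ctrl, which shares the BDNF libraries, Srsf3, Xrn2 and Hnrnph1 had been called lower (−0.14, −0.15 and −0.21). In BDNFEV minus Ctrl Srsf3, Xrn2 and Hnrnph1 stood at 0.05, 0.02 and 0.04, and Tarbp2, Srrt and Smpd3 at 0.14, 0.09 and 0.08. For the difference between the effect of the donors' treatment and that of direct BDNF, 3.31% of the 121 passed. That is close to the 3.34% of all genes tested. Those of the 121 that passed included Hnrnph1 (0.37) and Elavl4 (0.34) beside Tarbp2 (edgeR adjusted p = 0.00927 and 0.0277 for the first 2).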

How the data were processed

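RNA of 18 hippocampal libraries was sequenced with the TruSeq RNA kit v2, which does not mark strand, from 500 ng of RNA as single reads of 50 bp, per the labels' protocols. The authors deposited raw counts per Ensembl gene, not normalised. The submitters' processing notes name the mm10 build, cutadapt 1.8.1, DESeq2 without a version, and CASAVA (1.8 and 1.8.2). The aligner and the counter were not given in the sources used here. Small RNA libraries were not used here. Symbols were matched by Ensembl gene id, and 55144 of 55471 genes had one. Positions and promoter windows came from RefSeq tables of GRCm38.p6. With no transcript lengths, the planned levels per length could not be computed.

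Counts were tested with edgeR 4.0.16 (R 4.3.3, robust quasi-likelihood fit, TMM, expression filter with a minimum count of 10, group and batch as terms, all 18 libraries), at an adjusted p under 0.05. The fit was tested on simulated counts for BDNF minus Ctrl only. These had the same spread for every gene and no batch or set differences, unlike the data. Replicate numbers come from the library names. Same-numbered libraries deviated together in every pair of every comparison (correlations of 0.185 to 0.577). They also share a batch, and batch means were not removed here. Libraries with different numbers were not correlated, so pairing beyond the batch is not shown. No pair of libraries of 1 group was alike within sampling noise (lowest chi-square per degree of freedom 2.62). Alternatives were another normalization, no filter, no batch term, the replicate block, batches a and b, the libraries compared alone, DESeq2 1.42.0 and leaving out each library.

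The 10 genes are always named. From each list, called genes with a mean of at least 2 CPM were named, up to 3 in each direction, and the 3 genes most alike in pattern for members called or with the smallest p of a comparison. Dicer1, Ago2 and Ago3, Tnrc6b, and other examples were chosen after their values were seen. Members and lists were chosen with earlier results of these data known. Some genes that the naming rule reaches are not reported here.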

Additional observations from a re-analysis of the deposited data

Results flagged for a closer look

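Within groups of 6 libraries, 1 library stood far from the rest for 2 genes. Dgcr8 was at 50.9 CPM in Ctrl 6 and at 45.1 to 47.2 CPM in the other Ctrl libraries. Ago1 was at 233.9 CPM in BDNF 3 and at 215 to 222 CPM in the other BDNF libraries. Chance alone sets a library apart in this way in about 1 of 20 groups, and 20 groups of 6 were looked at here. Ctrl 6 is the deepest library and is also the highest Ctrl library for Dicer1, Ago1, Ago2, Ago3, Lin28b and Hnrnpa2b1.

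For Tarbp2, the change with EVs of BDNF-treated donors and the change with direct BDNF were 0.38 apart (log2, edgeR adjusted p = 0.0458), in a test of the difference that was chosen after seeing the data. The call was lost with the replicate number as a block (edgeR adjusted p = 0.0620) and with DESeq2 (adjusted p = 0.0521). It was also lost without the batch term (edgeR adjusted p = 0.321), with batches a and b alone (edgeR adjusted p = 0.0557) and in 13 of 18 fits without 1 library.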

How the results depend on the processing

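Of the fold changes of the 10 genes under alternatives other than leaving out 1 library, 385 kept direction and side of the threshold, 14 reversed, 9 weakened and 2 strengthened. For BDNF minus Ctrl, 0 of the 10 genes passed without the filter, without the batch term, with batches a and b or with the libraries compared alone (Drosha edgeR adjusted p = 0.0987, 0.318, 0.159 and 0.0612), and all genes called were 843 without the batch term and 1067 in batches a and b. Leaving out 1 library gave 0 to 1 of the 10 and 1795 to 2520 genes in all. CtrlEV minus Ctrl gave 38 genes without the filter, 2 without the batch term and 3 to 7 without 1 library (3 without CtrlEV 2). BDNFEV minus Ctrl gave 156, 2, 12 in batches a and b, 25 with DESeq2, 235 with the libraries compared alone and 4 to 14 without 1 library (14 without CtrlEV 2). BDNFEV minus CtrlEV gave 167 without the filter, 3 with DESeq2 and 0 to 1 without 1 library (1 without CtrlEV 3 or BDNFEV 1). BDNFEV minus BDNF gave 870 without the batch term and 704 to 1599 without 1 library (951, 704 and 925 without BDNFEV 1, 2 and 3), and of the 10 genes 0 with DESeq2 and 0 to 1 without 1 library. For the difference of the EV and direct effects, 2 of the 10 passed without the filter, where Hnrnpa2b1 joined, and 0 without the batch term, with the replicate block or in batches a and b. All genes were 1150, 51, 386 and 305, and without 1 library 0 to 1 and 240 to 825 (273 without CtrlEV 2, 240 and 350 without BDNFEV 2 and 3). The replicate block changed no other call of the 10.

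The reversals all concern values near 0 that did not pass. They are Dgcr8 in BDNF minus Ctrl (0.000833 in batches a and b), Drosha (0.0378 without batch) and Ago1 (0.0183 in batches a and b, 0.0202 with the libraries compared alone) in CtrlEV minus Ctrl, and in BDNFEV minus Ctrl Dicer1 (−0.0145), Xpo5 (0.0126) and Ago2 (−0.0818) without batch and Ago3 in batches a and b (0.0017) and with the libraries compared alone (0.00523). In BDNFEV minus BDNF they are Xpo5 without batch (0.00957) and Dicer1 (−0.0339 without batch, −0.00012 with the replicate block, −0.0503 in batches a and b, −0.0513 with the libraries compared alone). Without 1 library the ranges that crossed 0 were, for BDNF minus Ctrl, Ago3 −0.0552 to 0.136, Dicer1 −0.00975 to 0.0854, Xpo5 −0.00666 to 0.0182; for BDNFEV minus BDNF, Ago2 −0.142 to 0.0102, Ago3 −0.139 to 0.00399, Dicer1 −0.0294 to 0.0511; for BDNFEV minus Ctrl, Ago2 −0.0654 to 0.0832, Ago3 −0.144 to 0.0265, Dgcr8 −0.0155 to 0.0267, Dicer1 −0.0232 to 0.056, Drosha −0.011 to 0.0215, Hnrnpa2b1 −0.0652 to 0.0285; for BDNFEV minus CtrlEV, Drosha −0.0143 to 0.034; for CtrlEV minus Ctrl, Ago1 −0.0484 to 0.0284, Drosha −0.0313 to 0.0185. The causes were not tested.

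Depth limits Lin28b, with 26 to 73 counts per library. With 3 libraries in each EV group, the typical standard error of a log2 fold change was 0.0936 in BDNFEV minus CtrlEV and 0.0653 in BDNF minus Ctrl.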
